A study of Homo sapiens with 3 samples.

Results

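The 10 genes described here encode epithelial keratins: the simple, luminal-type KRT8, KRT18, KRT19, KRT7, KRT20 and KRT23, and the basal-type KRT5, KRT14, KRT15 and KRT17. They were taken by name, and each was read from the probe sets whose platform annotation names that gene alone, with the mean taken where there was more than 1. That gave values for 9 of the 10 keratins, out of 18417 genes named in this way. KRT17 is not analysed here. The cells were LNCaP, an established human line from a lymph node metastasis of prostate carcinoma with a luminal, androgen-responsive character. They received siSE1 (1 array), siSE2 (1 array) or a negative control siRNA (1 array) and were harvested after 72 hours. The siRNAs siSE1 and siSE2 were both directed at SLC45A3-ELK4, a chimeric RNA of neighbouring genes. No stable genetic change was made in any group, and all 3 arrays share the same line, medium and transfection reagent. The array titled siSE2 has a transfection field naming siSE1. Its title was used, and if that field is right, the siSE1 and siSE2 values below are repeats with a single siRNA.

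Keratins are the intermediate filament proteins of epithelial cells. A filament is built from obligate pairs of a type I and a type II keratin, so KRT8 (type II) needs a type I partner, most often KRT18. Simple, secretory epithelia, among them the luminal cells of the prostate, make KRT8 and KRT18, often with KRT19 and KRT7, while the basal cells beneath them make KRT5 with KRT14, KRT15 or KRT17. KRT20 is best known from the gut lining and urothelium. In the human gene table the type II genes KRT8, KRT7 and KRT5 lie on chromosome 12 and the type I genes on chromosome 17. KRT18 is the exception, a type I gene that sits beside KRT8 on chromosome 12, which puts 4 of the 10 genes on chromosome 12 and 6 on chromosome 17.

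The promoter windows that could be matched are shown because the siRNAs target a transcript with sequence of ELK4, an ETS-family transcription factor, and because KRT8 is a member whose level stood higher on both siRNA arrays. RefSeq windows (GRCh38.p14, 250 bases before the start to 50 after it) were found for 3 of the 10 genes. The capitals mark matches, on either strand, to the ETS site CCGGAAGT, the AP-1 site TGANTCA, the GC box GGGCGG or the TATA-like ATAAAA. None of these motifs overlapped another in these windows. KRT8 was read at chr12:52926420-52926719, the basal KRT5 at chr12:52520345-52520644 and the gut-type KRT20 at chr17:40885193-40885492, all on the minus strand and printed 5′ to 3′.

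KRT8: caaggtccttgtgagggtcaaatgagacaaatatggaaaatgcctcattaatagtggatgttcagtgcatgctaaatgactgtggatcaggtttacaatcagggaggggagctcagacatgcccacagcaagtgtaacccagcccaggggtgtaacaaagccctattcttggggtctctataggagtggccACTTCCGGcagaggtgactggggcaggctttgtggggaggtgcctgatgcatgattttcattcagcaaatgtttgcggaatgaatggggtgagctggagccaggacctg

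KRT5: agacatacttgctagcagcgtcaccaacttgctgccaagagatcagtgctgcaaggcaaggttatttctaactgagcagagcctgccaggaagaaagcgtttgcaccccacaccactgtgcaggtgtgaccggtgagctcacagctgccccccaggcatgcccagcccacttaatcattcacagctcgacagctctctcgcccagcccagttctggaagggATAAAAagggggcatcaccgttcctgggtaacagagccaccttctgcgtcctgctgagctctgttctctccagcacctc

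KRT20: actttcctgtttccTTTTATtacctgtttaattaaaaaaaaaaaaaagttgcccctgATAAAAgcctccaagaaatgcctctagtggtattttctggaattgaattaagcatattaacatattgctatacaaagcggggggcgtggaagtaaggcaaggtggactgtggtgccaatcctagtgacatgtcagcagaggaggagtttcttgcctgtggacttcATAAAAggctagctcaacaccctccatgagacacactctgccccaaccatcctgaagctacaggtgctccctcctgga

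The KRT8 window held 1 ETS site, read as ACTTCCGG on the printed strand, 59 to 52 bases before the listed start. The same 8 letters occurred on either strand in 4.14% of the 35116 windows of this length. KRT5 and KRT20 held 0 such sites. The shorter ETS core GGAA, not marked above, occurred 3 times in KRT8, 3 in KRT5 and 4 in KRT20. That core occurred in 95.45% of windows. KRT5 and KRT20 held ATAAAA close to the start, from 29 bases before it in KRT5 and from 28 in KRT20, which also held 2 further copies. ATAAAA was found in 16.0% of windows and was not found in the KRT8 window. None of the 3 windows held the AP-1 site (7.71% of windows) or the GC box (45.0%). The window shows the start that the table lists, and other starts of KRT8 were not examined. A match of letters does not show that a factor binds there.

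The deposited values are log2 signals, and 12892 genes with a mean over the arrays of at least 5.12, the 30th percentile, were tested. The test was limma's moderated test of the siRNA arrays (n = 2) against the control array (n = 1), adjusted over all genes tested. Its 1 residual degree of freedom comes from siSE1 against siSE2, and the lone control is assumed to vary as they do. Nothing in the labels speaks of separate cultures, so p-values measure only a spread between arrays that may be technical. Both siRNA arrays are set against the same control array, so a low or high reading on it would appear in both changes. The arrays correlated over all probe sets at 0.989 to 0.993. Of the targeted genes, SLC45A3 read 9.14 with siSE1, 9.27 with siSE2 and 9.66 on the control. ELK4 read 8.45 with siSE1, 8.20 with siSE2 and 8.50 on the control. Neither passed (limma, adjusted p = 0.154 and 0.582), and these probe sets do not resolve the chimeric junction.

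Of the 9 keratins with a value, 5 passed the filter on dim genes (KRT8, KRT18, KRT19, KRT7 and KRT14), and 4 lay below it (KRT20, KRT23, KRT5 and KRT15). KRT8, KRT18 and KRT7 stood 1.28- to 1.34-fold higher with the chimera siRNAs, KRT14 differed by less and KRT19 hardly at all. None of the 5 passed the test over all genes. That compares with 0.962% of the 12892 genes that passed in either direction and 0.248% that passed as higher. At an unadjusted p under 0.05, 3 of the 5 were higher, against 6.46% of all genes tested. A size rule with no test asked for a change of at least 0.32 on the log2 scale with siSE1 and again, with the same sign, with siSE2. By it 3 of the 5 were higher, against 4.27% of all genes, and 0 of the 5 were that much lower, against 8.02%. At 1.5-fold higher on both, the count was 0 of 5, against 0.582% of all genes. The median change of the 5 was 0.35 on the log2 scale, beside -0.019 over all genes tested. The keratins were picked with earlier results of these arrays known, so these counts describe them and do not test them as a set.

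**Figure D1:**
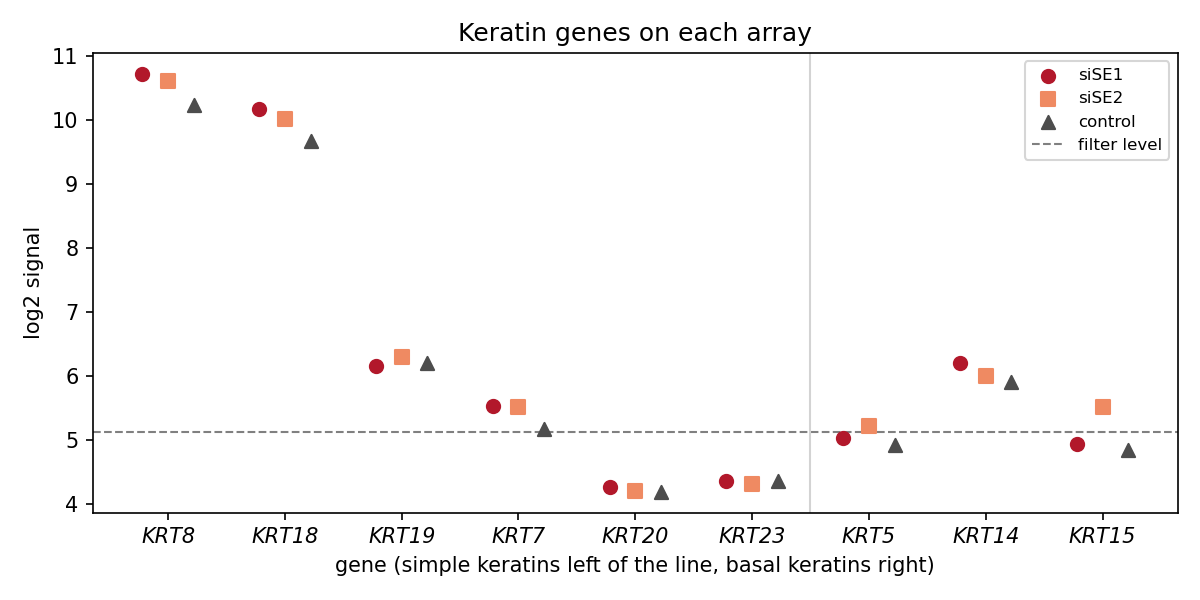
Log2 signal (y axis) of the 9 keratin genes with a value (x axis) on the siSE1 array (circle), the siSE2 array (square) and the control array (triangle). KRT8, KRT18 and KRT7 lie above the control on both siRNA arrays; the dashed line is the filter level of 5.12, below or near which KRT20, KRT23, KRT5 and KRT15 lie, and signals of different genes are not comparable with each other.

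KRT8, the main type II keratin of simple epithelia, read 10.73 with siSE1 and 10.61 with siSE2, against 10.24 on the control array. Both siRNA arrays lay above the control, and the gap between them, 0.12 on the log2 scale, was smaller than either change. The mean difference was 0.43 ± 0.14 (SE, n = 2 against 1), a 1.34-fold higher level with an unadjusted 95% interval from 0.10 to 0.75. It did not pass over all genes (limma, adjusted p = 0.173; unadjusted p = 0.0153). Of the other genes tested, 237, or 1.84%, stood at least as high as KRT8 with siSE1 and with siSE2.

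KRT18, the usual type I partner of KRT8, read 10.17 with siSE1 and 10.02 with siSE2, against 9.68 on the control array. Its order over the arrays was that of KRT8, with siSE1 highest and the control lowest. The mean difference was 0.42 ± 0.15 (SE, n = 2 against 1), 1.34-fold, with an interval from 0.087 to 0.75. It did not pass either (limma, adjusted p = 0.189; unadjusted p = 0.0186). The changes of KRT18, 0.49 with siSE1 and 0.34 with siSE2, lay close to those of KRT8, 0.49 and 0.37, at a distance of 0.027. Ranked by the distance of these changes from those of KRT8, KRT18 came 11th of 12891 genes. The nearest were ATP1B2, a sodium pump subunit gene, HRAS, a small GTPase gene, and MRPL11, a mitochondrial ribosomal protein gene, all within 0.0083. With 3 arrays many genes share a pattern, and 51 lay within 0.05 of KRT8.

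The KRT18 value is the mean of a pair of probe sets, which differed in size but not in direction. Probe set 7955637 read 10.52 with siSE1 and 10.42 with siSE2, against 9.92 on the control. Probe set 8154725 read 9.82 with siSE1 and 9.61 with siSE2, against 9.43 on the control. The mean differences were 0.55 and 0.28 on the log2 scale, and the larger, that of the brighter probe set taken alone, did not pass either (limma, adjusted p = 0.0921). KRT8 had a single probe set. KRT18 and KRT8 have many processed pseudogenes with near-identical sequence, so how far each probe set reads the parent gene alone is uncertain. The pseudogene probe sets that name KRT8P41, KRT18P59 and KRT18P55 alone differed by 0.014, -0.041 and 0.088 on the log2 scale, each below the 0.32 of the size rule. They were dim, at 5.57, 4.44 and 4.77 on the control. Such small differences say little about the part of pseudogenes in the KRT8 and KRT18 values.

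**Figure D2:**
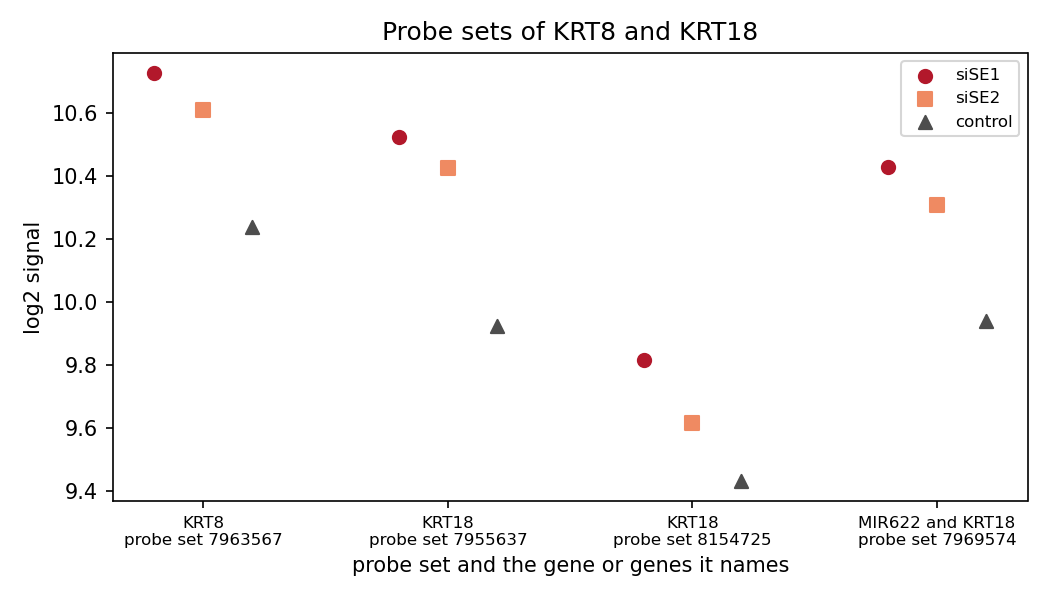
Log2 signal (y axis) of the probe sets that name KRT8, KRT18, or MIR622 and KRT18 together (x axis), on the siSE1 array (circle), the siSE2 array (square) and the control array (triangle). On each of the 4 probe sets the order is siSE1, siSE2 and then control, with mean differences from 0.28 to 0.55.

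KRT8 and KRT18 lie side by side, and their RefSeq spans overlap, though whether any probe set reads both genes was not tested. The genes nearest to them were therefore read as well, the 5 with values on each side of the pair, chosen by position after the keratin values were seen. Of these 10, 7 were tested, and their changes ran from -0.052 to 0.45 with a median of 0.15. SPRYD3 alone among them was past 0.32 on both arrays, at 8.12 with siSE1 and 7.87 with siSE2, against 7.55 on the control. It did not pass (limma, adjusted p = 0.186). EIF4B, a translation initiation factor gene on the same side, read 10.17 with siSE1 and 10.31 with siSE2, against 10.10 on the control. It was named outside the naming rule given below.

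KRT7, a type II keratin of ducts and glands, read 5.53 with siSE1 and 5.52 with siSE2, against 5.17 on the control array. The siRNA arrays were 0.0077 apart and both above the control. The mean difference was 0.35 ± 0.14 (SE, n = 2 against 1), 1.28-fold, and did not pass (limma, adjusted p = 0.232; unadjusted p = 0.0316). KRT7 was dim, 0.29 above the filter level on its mean. Genes with mean signals from 4.82 to 6.31, where KRT7 lies, had a median change of 0.078, while those from 7.73 to 13.3, where KRT8 and KRT18 lie, had a median of -0.062. The part of this drift with brightness in the KRT7 value was not tested. The KRT7 changes with siSE1 and siSE2 were 0.29 and 0.30 with quantile normalization and 0.27 and 0.29 with cyclic loess. With equal array medians, which shift each whole array by a constant, they were 0.318 and 0.312. KRT7 thus fell short of 0.32 on both arrays with each, in the last case narrowly.

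KRT19, the smallest type I keratin and one that lacks a tail domain, read 6.15 with siSE1 and 6.29 with siSE2, against 6.20 on the control array. The control lay between the siRNA arrays. The mean difference was 0.021 ± 0.15 (SE, n = 2 against 1), with an interval from -0.31 to 0.35 (limma, adjusted p = 0.956), and its sign turned with each of the 3 normalizations tried. The difference between KRT19 and KRT7 was not tested. The remaining simple keratins were too dim to be tested in the main comparison. KRT20 read 4.25 with siSE1 and 4.20 with siSE2, against 4.19 on the control. KRT23, a type I keratin of glandular epithelia, read 4.36 with siSE1 and 4.30 with siSE2, against 4.36 on the control. Their mean differences were 0.037 for KRT20 and -0.028 for KRT23, on signals that may be background.

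Among the basal keratins only KRT14 passed the filter. KRT14, the partner of KRT5 in basal cells, read 6.20 with siSE1 and 5.99 with siSE2, against 5.90 on the control array. The siSE1 array was the highest, and the siSE2 array exceeded the control by 0.087. The mean difference was 0.19 ± 0.15 (SE, n = 2 against 1; limma, adjusted p = 0.548). KRT5 read 5.03 with siSE1 and 5.21 with siSE2, against 4.92 on the control. KRT15, a type I keratin of basal and progenitor cells, read 4.93 with siSE1 and 5.51 with siSE2, against 4.85 on the control. Only the siSE2 array stood apart for KRT15.

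KRT5 and KRT15 fell just outside the filter, with means 0.065 and 0.023 below its level. With no filter their mean differences, 0.20 for KRT5 and 0.37 for KRT15, did not pass (limma, adjusted p = 0.569 and 0.500), nor did those of KRT20 and KRT23 (0.928 and 0.946). The gap between siSE1 and siSE2 in KRT15, 0.59 on the log2 scale, was the widest of the 9 keratins. The median gap was 0.14 over the 9 keratins and 0.12 over all 18417 genes, of which 233 other genes, or 1.27%, were as far apart as KRT15. With 1 array for each siRNA this gap has no test. Counting the dim genes, 7 of the 9 keratins read above the control on both siRNA arrays and 0 below it on both, while 39.9% of all genes read above it on both.

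**Figure D3:**
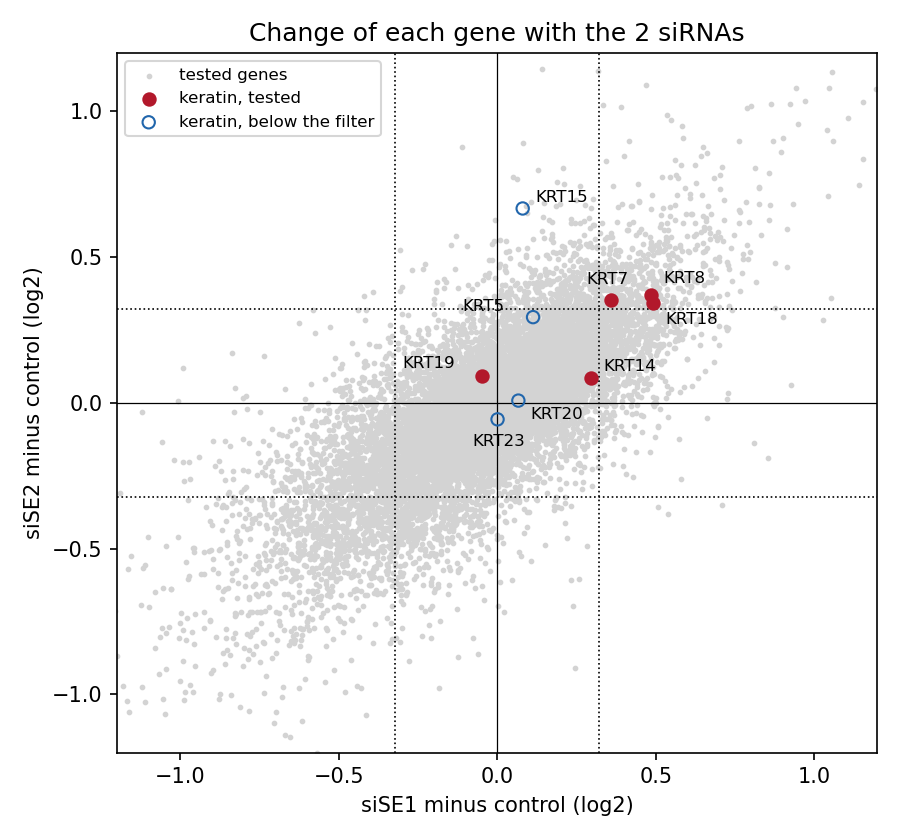
Change from the control with siSE1 (x axis) and with siSE2 (y axis), both log2, for the tested genes (grey), the 5 tested keratins (filled) and the 4 keratins below the filter (open); dotted lines mark 0.32. KRT8, KRT18 and KRT7 lie past 0.32 on both axes, KRT15 on the siSE2 axis only, 36 tested genes lie outside the plotted range of 1.2, and the shared control array by itself tilts the grey cloud upward to the right.

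The other keratin genes, which serve stratified epithelia, hair and nail, were dim throughout. Of 39 such genes, none read above 5.99 on any array, and 15 passed the filter. None of the 15 rose or fell by the test. Of these 15, 13 read above the control on both siRNA arrays and 1 below it on both, against 36.4% of all tested genes above it on both, and their median change was 0.15. They lie in the dim range whose median change over all genes was 0.078, and the part of that drift in the count was not tested. KRT32, 1 of the 13 and named for this reason, read 5.03 on the control, below the filter level. It entered the count only through the siRNA arrays. KRT13, a type I keratin of stratified, non-cornified epithelia, was the only one of the 15 past 0.32 on both arrays. It read 5.91 with siSE1 and 5.97 with siSE2, against 5.49 on the control (0.45 ± 0.14, SE; limma, adjusted p = 0.149). KRT10, a keratin of differentiated epidermis, was the member below the control on both, at 5.27 with siSE1 and 5.42 with siSE2, against 5.53, and was chosen after its values were seen. Below the filter, and so without a test, the hair keratin KRT38 read 4.97 with siSE1 and 4.65 with siSE2, against 4.17 on the control. KRT73, a keratin of the hair follicle's inner root sheath, read 4.01 and 4.43, against 4.78. Both were past 0.32 on both arrays, in opposite directions, and were also chosen after their values were seen.

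Genes whose products anchor keratin filaments to desmosomes and hemidesmosomes did not move in a single direction. Of 13 tested, none rose or fell, 5 read higher on both siRNA arrays and 5 lower on both, and the median change was -0.0051. Over all 12892 genes tested, 4695 read higher on both and 5382 lower on both. The counts of the next lists are to be read against the same share. EPPK1, which encodes epiplakin, a keratin-bundling plakin, read 8.56 with siSE1 and 8.78 with siSE2, against 8.22 on the control. DST, which encodes dystonin, a plakin of hemidesmosomes and the cytoskeleton, read 5.01 and 5.07, against 5.65 on the control. Both siRNA readings of DST lay below the filter level, so it entered the test and the count only through the control array. The plakophilin gene PKP2 read 7.14 and 7.27, against 7.60. DSP, which encodes desmoplakin and links keratin filaments to the desmosome, was chosen after its values were seen as the remaining gene past 0.32 on both arrays. It read 8.71 with siSE1 and 8.56 with siSE2, against 8.24 on the control. These 4 genes did not pass.

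Genes for keratin-binding proteins also gave no call. Of 13 tested, 6 read higher on both arrays and 4 lower on both, with a median of 0.044. AGR2, a protein disulfide isomerase of secretory epithelia, differed by 0.56 ± 0.16 (SE), YWHAZ, which encodes a 14-3-3 adaptor, by 0.21 ± 0.14 and FAM83H, which encodes a scaffold that brings casein kinase to keratin filaments, by -0.20 ± 0.14. Of 11 tested genes of other intermediate filaments, 4 read higher on both arrays and 3 lower on both, and none passed (median 0.036). LMNB2, a B-type lamin gene, differed by -0.35 ± 0.15, NEFL, a neurofilament gene, by 0.25 ± 0.15 and NES, which encodes nestin, by 0.20 ± 0.14. VIM, the vimentin gene of mesenchymal cells, read 6.56 with siSE1 and 6.73 with siSE2, against 6.89 on the control, opposite in direction to KRT8 and KRT18 and without passing.

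Of 27 tested genes on a list of epithelial transcription factors, 15 read higher on both siRNA arrays and 8 lower on both, and none passed (median 0.11). The list is not confined to factors of epithelial identity, as it also holds SP1, JUN, FOS, JUNB, FOSL1 and FOSL2. Of these, FOS, JUNB, FOSL1 and FOSL2 are among the 15. GATA3, also among the 15, lay below the filter level on the control array and entered the count only through the siRNA arrays. SNAI2, a repressor of epithelial genes, read 7.59 with siSE1 and 7.43 with siSE2, against 8.19 on the control (-0.68 ± 0.15, SE; limma, adjusted p = 0.0654). The Krüppel-like factor genes KLF4 and KLF5 differed by 0.52 ± 0.15 and 0.33 ± 0.14 (limma, adjusted p = 0.123 and 0.264). Besides SNAI2, the genes lower on both arrays were FOXA1, GATA2, SPDEF, ELF5, GRHL2, OVOL2 and TFAP2C. In that order they differed by -0.17, -0.24, -0.37, -0.21, -0.12, -0.16 and -0.20 on the log2 scale. They did not pass and were named outside the naming rule given below.

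**Figure D4:**
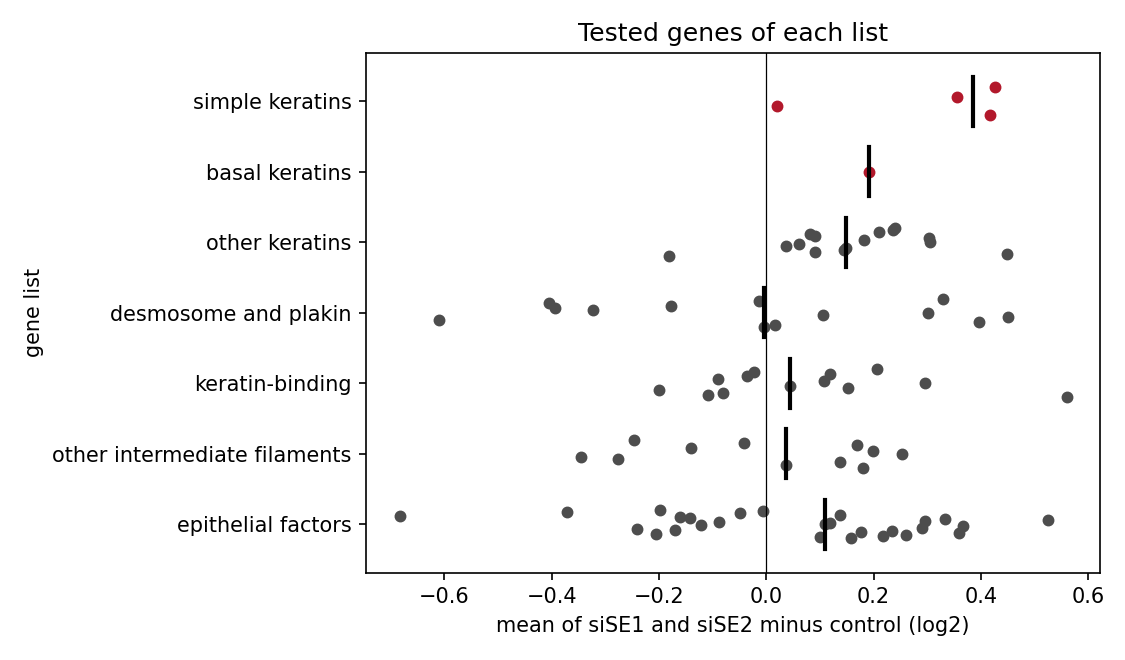
Mean change on the siSE1 and siSE2 arrays from the control (x axis, log2) of each tested gene (point), by gene list (y axis); black bars are list medians. The simple keratins have a median of 0.39 over 4 genes, the other keratins 0.15 over 15, and the desmosome and plakin genes spread from below to above 0 with a median of -0.0051.

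Markers of cell types were read beside the keratins. Of 13 tested luminal prostate markers, CD24 rose (1.99-fold; limma, adjusted p = 0.0372), none fell and 12 did not pass, with a median of 0.0048. That 1 call stands beside 0.248% of all genes tested that passed as higher. Of the 13, 4 read higher on both siRNA arrays and 6 lower on both, beside 4695 and 5382 of all 12892 genes tested. CD24, a surface glycoprotein gene of luminal cells, read 6.14 with siSE1 and 5.83 with siSE2, against 4.99 on the control, which is below the filter level, so it entered the test only through the siRNA arrays. The CD24 call was lost with equal array medians (limma, adjusted p = 0.0519) and with no filter (limma, adjusted p = 0.124). With the 50th percentile filter CD24 was too dim to be tested. The summed linear signal of the 14 luminal markers with a value was 10137 with siSE1 and 10929 with siSE2, against 11892 on the control, a sum that rests on the brightest of them. ACP3, the prostatic acid phosphatase gene, went the other way at 7.04 with siSE1 and 7.26 with siSE2, against 6.39 on the control, and did not pass (limma, adjusted p = 0.0569, chosen after its values were seen). By the size rule 2 of the 13, CD24 and ACP3, were higher on both arrays, and 3 were lower. These were KLK3, PMEPA1 and SLC45A3, at -0.39, -0.53 and -0.46 on the log2 scale. They did not pass and were also chosen after their values were seen. Of 6 tested basal markers other than keratins, none passed, and the median was 0.0013, with SNAI2 given above, ITGB4, a hemidesmosomal integrin gene, at 0.21 ± 0.14 (SE) and LAMB3, a laminin gene, at 0.24 ± 0.14. The sum over the 11 with a value was 860 with siSE1 and 776 with siSE2, against 921 on the control. It rests on the brightest of them, and SNAI2, lower on both siRNA arrays, is among these.

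Of 7 tested markers of gut and secretory epithelium, REG4, a secreted lectin gene, rose (2.74-fold; limma, adjusted p = 0.0207, and 0.0927 with no filter), none fell and 6 did not pass. That 1 call stands beside 0.248% of all genes tested that passed as higher. Of the 7, 6 read above the control on both siRNA arrays, against 36.4% of all genes tested, and the median was 0.28. MUC2, a gel-forming mucin gene, read 5.70 with siSE1 and 5.74 with siSE2, against 5.37 on the control, and CDX2, the intestinal homeobox gene, read 6.08 and 6.06, against 5.97. Most of these genes are dim, and the part of the upward drift of dim genes given above was not tested. The summed signal of the 13 with a value was 631 with siSE1 and 645 with siSE2, against 485 on the control. That sum includes REG4, whose change was the largest of these genes. The remaining 6, VIL1, CDH17, CEACAM5, CEACAM6, SPINK1 and SPINK4, lay below the filter, as did KRT20. Of the 9 blood cell markers with a value, 3 were tested, LYZ, CD68 and CD14. None passed, and on the control LYZ and CD14 lay below the filter level, so they entered the test only through the siRNA arrays. The sum of the 9 was 396 with siSE1 and 389 with siSE2, against 309 on the control. LYZ, the lysozyme gene, read 6.09 with siSE1 and 5.11 with siSE2, against 4.41. The macrophage genes CD68 and CD14 differed by 0.30 ± 0.15 and 0.27 ± 0.15 (SE), while PTPRC, the defining leukocyte gene, read 3.22 and 3.18, against 3.17. Of 8 tested stromal markers none passed (median 0.021), with ACTA2, a smooth muscle actin gene, at -0.47 ± 0.16, VIM at -0.25 ± 0.15 and COL3A1, a collagen gene, at 0.15 ± 0.14. The stromal sum over 12 genes was 2375 with siSE1 and 2229 with siSE2, against 2468 on the control, and it too rests on the brightest genes. CLDN5, a tight junction gene and the 1 endothelial marker tested, differed by 0.24 ± 0.15 without passing, and the endothelial sum over 6 genes was 178 with siSE1 and 177 with siSE2, against 154 on the control. The part of these markers in the keratin values was not tested. In RNA from whole cultures, more RNA per cell and more cells of a type cannot be told apart.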

How the data were processed

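Gene expression in LNCaP cells was measured on 3 Affymetrix arrays. The authors deposited 33297 probe set values per array on a log2 scale, and, per the submitters' processing notes, used Affymetrix Expression Console. The log2 scale is inferred from the range, 1.43 to 13.9. The sources used here name no algorithm, version or genome build. Groups came from sample titles.

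Here, 19460 probe sets naming 1 gene were kept, symbols were updated by gene identifier (19429 matched in a GRCh38.p14 table, used for names and gene order), and probe sets of a gene were averaged. The 5525 genes below the 30th percentile were left out. Tests used limma 3.58.1 in R 4.3.3 (lmFit, eBayes, two-sided) with Benjamini-Hochberg adjustment over 12892 genes and a threshold of 0.05. The fit was tested on simulated data. SE is the moderated standard error, and intervals are unadjusted. The number of arrays limits the precision, and no detection calls were used.

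The keratins, gene lists and rules were chosen with earlier results of these data known. Named were all 10 keratins, up to 6 other tested keratins past 0.32 on both arrays, from each list the genes that passed or else up to 3 by the smaller change, and the 3 genes nearest KRT8. Genes named outside this rule are marked as such or are defining markers. Lists are given by counts and medians. Alternatives were 3 normalizations, 2 filters, the highest probe set, 2 variance priors and leaving out each siRNA array.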

Additional observations from a re-analysis of the deposited data

Results flagged for a closer look

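A probe set outside the comparison, 7969574, names MIR622 and KRT18 together and so was left out of the KRT18 value. It drew attention because it read 10.43 with siSE1 and 10.31 with siSE2, against 9.94 on the control array, a mean difference of 0.43 on the log2 scale with no test. It was the only one of 3 keratin probe sets naming several genes that stood at least 0.32 higher on both siRNA arrays. No group has 4 arrays, so none could be examined for a single array far from the others.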

How the results depend on the processing

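No keratin passed the test under any of the 8 alternative fits (limma; adjusted p from 0.134 to 0.268 for KRT8, 0.0921 to 0.283 for KRT18 and 0.231 to 0.353 for KRT7). Over all genes 124 passed (32 higher), against 189 (63 higher) with quantile normalization, 1 (higher) with no filter and 35 (15 higher) when only genes above the 50th percentile were kept. Higher calls numbered 21 with equal array medians and 48 with cyclic loess. With equal array medians 1 keratin, KRT8, was past 0.32 on both siRNA arrays, against 3, since KRT18 then stood 0.30 and KRT7 0.31 higher with siSE2. The count was 2 with quantile normalization and 2 with cyclic loess, where KRT7 fell short of 0.32 on both arrays. The cause of that shift was not tested. It was also 2 with the 50th percentile filter, which leaves KRT7 out. The KRT19 difference changed sign with quantile normalization (-0.0010), equal array medians (-0.019) and cyclic loess (-0.0091). Of the 90 keratin differences under alternatives, 8 changed sign, all small values: 4 of KRT19, 3 of KRT20 and 1 of KRT23. Many of the 90 could not change. The 2 filters and 2 variance priors leave every difference as it is, and the highest probe set alters only KRT18. Only the 3 normalizations and leaving out a siRNA array could turn the other keratins. Leaving out a siRNA array turned KRT19 (-0.049 with siSE1 alone) and KRT23 (0.00087 with siSE1 alone). The size rule needs both siRNA arrays, so leaving 1 out cannot lower its count of 3. No paired analysis was possible because the control has a single array. The lone control array and the dimness of KRT5, KRT15, KRT20 and KRT23 limit what can be detected.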
